A study of Mus musculus with 6 samples.

Results

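The genes described here encode 9 chains of laminin: the alpha chains Lama1, Lama2, Lama3, Lama4 and Lama5, the beta chains Lamb1, Lamb2 and Lamb3, and the gamma chain Lamc1. They were taken by name from the 49671 genes of the count tables, and all 9 had enough reads to be tested. Lamc3, which encodes another gamma chain, is not among the 9 and is given beside them because some trimers need it. RNA sequencing was done on 6 libraries of cells sorted from pancreatic tumours. The hosts were Rosa-mTmG; Fabp4-Cre mice on a C57BL/6J background, injected in the pancreas at 8 weeks of age with FC1199 mouse pancreatic cancer cells and examined 4 weeks later, at 12 weeks. In both groups the sorted cells carried Podoplanin on their surface. The GFP group (3 libraries) was the fraction in which Cre, driven by the Fabp4 promoter, had switched the reporter to GFP, which the labels call stellate cell-derived cancer-associated fibroblasts. The Tomato group (3 libraries) was the fraction in which the reporter was not switched, which the labels call non-stellate cell-derived. The origin of a cell is therefore read from the activity of 1 promoter, at any time in the life of that cell or its ancestors.

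Laminins are large glycoproteins of the basement membrane, the thin sheet of matrix on which epithelium and endothelium rest and which wraps muscle, fat and nerve. Each laminin is a trimer of an alpha, a beta and a gamma chain joined by a coiled coil. Its name lists the chain numbers in that order, so that laminin-411 is Lama4, Lamb1 and Lamc1. The beta and gamma chains can pair inside the cell before secretion, whereas secretion of the trimer depends on an alpha chain, whose end carries most of the binding sites for integrins and dystroglycan. Laminins with the Lama5 chain are typical of mature epithelial and vascular basement membranes, those with Lama2 of muscle and nerve, those with Lama4 of vessels and mesenchyme, those with Lama1 of the embryo and a few adult epithelia, and those with Lama3 of the epithelium of skin and glands.

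Each library held between 33378377 and 42154933 counted reads. Levels are given as CPM, counts scaled to library size after TMM scaling between libraries. The gate gene Pdpn stood at 404 ± 35.5 CPM in GFP and 433 ± 19.6 in Tomato (SD, n = 3), and the driver gene Fabp4 at 17.1 ± 1.56 and 18.2 ± 0.907. All 10 fibroblast markers were detected, with a summed level of 65370 to 73470 CPM in GFP and 31060 to 45320 in Tomato, and 5 of them were higher in GFP. Markers of other cells also differed between the fractions. The 10 mesothelial markers summed to 74.9 to 139.5 CPM in GFP and 1539 to 1910 in Tomato (10 lower in GFP), the 10 macrophage markers to 127.4 to 199.6 and 895.8 to 2191 (10 lower), and the 12 markers of epithelium and cancer cells to 31.9 to 37.8 and 136 to 184 (5 of 9 tested lower). The 10 endothelial markers summed to 165 to 234 CPM in GFP and 71.1 to 101 in Tomato (7 higher), and the 6 lymphatic markers to 309.5 to 492.8 and 22.2 to 77.6 (5 of 5 tested higher, with Ccl21a at 0 in all libraries). Schwann cell markers were near the detection limit, at 4.18 to 4.82 and 4.10 to 6.83 CPM for 7 genes, with Foxd3 at 0 in all libraries and Sox10 at 0 in those of GFP, and of 4 tested 1 was higher and 1 lower. Markers of pericytes and smooth muscle summed to 164 to 266 and 173 to 285 CPM (3 of 9 higher, 1 lower), and acinar markers to 118 to 423 and 390.3 to 786 (none of 7 called by edgeR, DESeq2 or limma-voom, and 1 lower at an unadjusted p under 0.05).

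In the GFP fraction 6 of the 9 laminin chain genes were higher than in the Tomato fraction, 1 was lower, and 2 did not pass the test. Across the transcriptome 13.1% of 15608 genes tested were higher in GFP and 15.7% lower by the same rule (edgeR quasi-likelihood test, adjusted p under 0.05). The 6 were Lama1, Lama2, Lama4, Lamb1, Lamb2 and Lamc1, with log2 fold changes (GFP over Tomato) from 0.71 to 1.52, the lower one was Lama5 at -2.75, and Lama3 and Lamb3 were scarce in both fractions. The median over the 9 was 0.87, against 0.00 over all genes tested. At a threshold of 0.01, 3 of the 9 were higher (3.7% of all genes tested) and 1 was lower (6.94%). For each of the 7 genes called, the 3 GFP libraries and the 3 Tomato libraries did not overlap, which was also so for 23.4% of all genes tested in the higher and 25.2% in the lower direction.

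**Figure D1:**
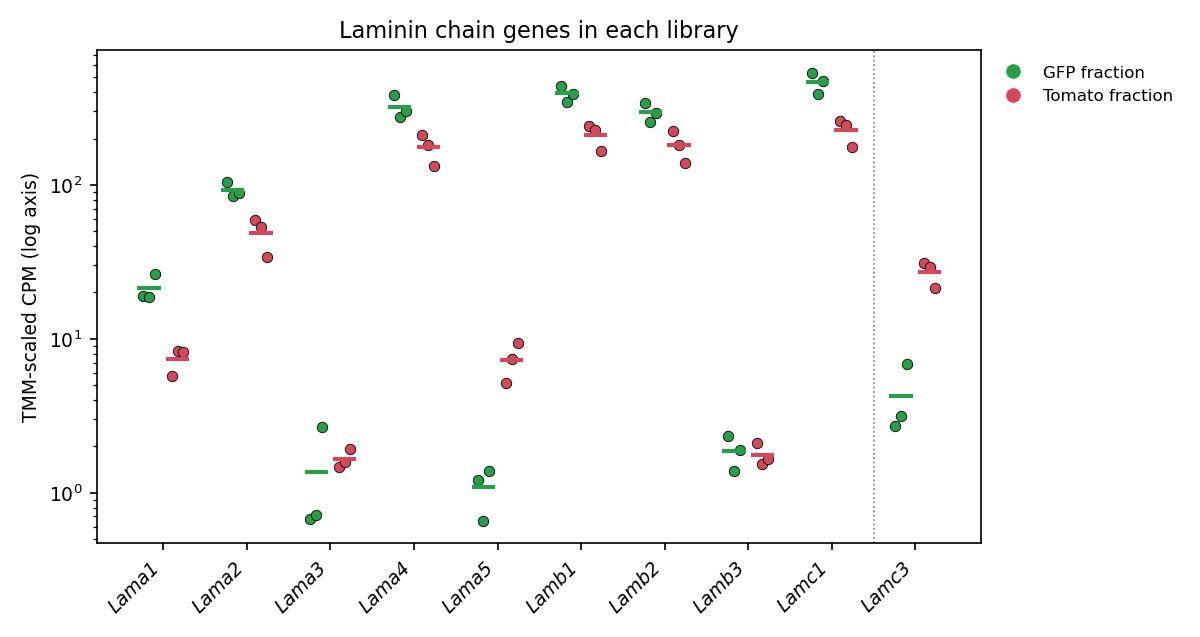
TMM-scaled CPM (log axis) of the 9 laminin chain genes and, right of the dotted line, of Lamc3. Each point is a library, in order of replicate number, and bars are means of 3 libraries. The GFP points lie above the Tomato points for Lama1, Lama2, Lama4, Lamb1, Lamb2 and Lamc1, and beneath them for Lama5 and Lamc3.

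The upstream sequences of 2 of these genes are shown because their RNA moved in opposite directions between the fractions: Lamb1, a beta chain that was higher in GFP, and Lama5, the chain that was lower. Both are from the RefSeq promoter table for GRCm38.p6, which held a window for 5 of the 10 laminin chain genes, and run 5′ to 3′ on the strand of the gene. They end before the first annotated base of the gene, at chr12:31265043-31265233 on the plus strand for Lamb1 and at chr2:180225860-180226109 on the minus strand for Lama5. Capitals mark GC boxes, the letters GGGCGG on either strand.
Lamb1: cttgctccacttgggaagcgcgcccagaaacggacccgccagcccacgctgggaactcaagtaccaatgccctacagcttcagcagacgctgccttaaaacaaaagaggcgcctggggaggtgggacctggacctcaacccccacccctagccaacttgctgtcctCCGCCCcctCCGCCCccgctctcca
Lama5: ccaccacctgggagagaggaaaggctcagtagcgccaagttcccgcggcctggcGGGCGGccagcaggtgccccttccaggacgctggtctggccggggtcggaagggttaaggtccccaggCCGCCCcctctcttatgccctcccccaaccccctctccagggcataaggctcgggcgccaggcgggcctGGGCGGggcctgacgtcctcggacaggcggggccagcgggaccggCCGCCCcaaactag

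In the 250 bases before the RefSeq start, Lamb1 had 2 GC boxes and Lama5 had 4, while 32.7% of 32851 such windows held at least 1. The G and C content was 62.0% for Lamb1 and 72.4% for Lama5, against a median of 52.4% over all windows. Neither window held the AP-1 letters TGANTCA, found on either strand in 6.75% of all windows, or the TATA box letters TATAAA, found in 12.4%. These matches describe the letters only.

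Among the alpha chains, Lama4 was the most abundant in both fractions. Lama4 (ENSMUSG00000019846, chromosome 10, 38965515 to 39110188, GRCm38) encodes an alpha chain that lacks most of the short arm of the other alpha chains. It stood at 382, 276 and 301 CPM in GFP replicates 1, 2 and 3 and at 211, 181 and 133 in Tomato replicates 1, 2 and 3. All GFP libraries were above all Tomato libraries, by 0.87 ± 0.18 on the log2 scale (SE; edgeR adjusted p = 0.0118). Of the markers of endothelial cells, which make this chain, 7 of 10 were higher in GFP, while Tek, Vwf and Kdr did not pass. Of the fibroblast markers 5 of 10 were higher too. The part of these cells in the difference was not tested.

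Lama2 (ENSMUSG00000019899, chromosome 10, 26980036 to 27619758) encodes the alpha chain whose loss causes a muscular dystrophy. Its levels were 105, 85.0 and 88.6 CPM in the GFP libraries and 59.0, 53.1 and 33.9 in those of Tomato. The groups did not overlap, with Tomato replicate 3 lowest, and the log2 fold change was 0.93 ± 0.20 (adjusted p = 0.0118). An antisense gene, Gm48084, overlaps 631 bases of its exons, and reads of the 2 strands were counted together. Antisense genes also overlap exons of Lama3 (Gm29200, 197 bases) and Lamc3 (Gm13441, 382 bases), each with a total count of 0.

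Lama1 (ENSMUSG00000032796, chromosome 17, 67697259 to 67822647) encodes the alpha chain of the laminin first found in embryonic and tumour basement membrane. It had 18.8, 18.7 and 26.4 CPM in GFP and 5.76, 8.31 and 8.17 in Tomato. Every GFP library was more than 2 times as high as every Tomato library. The log2 fold change of 1.52 ± 0.19 (adjusted p = 0.00113) was the largest rise among the 9 genes.

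Lama5 (ENSMUSG00000015647, chromosome 2, 180176373 to 180225859) encodes the alpha chain of laminin-511 and laminin-521, to which epithelial and endothelial cells bind. It was scarce in GFP, at 1.21, 0.657 and 1.38 CPM, from 45, 22 and 49 reads. In Tomato it stood at 5.16, 7.44 and 9.39 CPM, from 221, 289 and 346 reads. The fractions did not overlap, and Lama5 was lower in GFP by a log2 fold change of -2.75 ± 0.32 (adjusted p = 0.000789). The GFP libraries also had less of the mesothelial and macrophage markers, and of 5 of 9 tested markers of epithelium and cancer cells. Of the latter, Krt7 alone had a mean of 82.1 CPM in Tomato. Cldn4, Cldn7, Elf3 and Muc1 did not pass, and Esrp1, Grhl2 and Rab25 were too low to be tested. In Tomato replicates 1, 2 and 3 the macrophage markers summed to 896, 1472 and 2191 CPM. The epithelial and cancer cell markers summed to 136, 149 and 184 there, and the mesothelial markers to 1735, 1910 and 1539. The endothelial markers summed to 100, 101 and 71.1 there, with 7 of 10 higher in GFP. In bulk libraries fewer cells of a type and less RNA per cell cannot be told apart, and the part of these cells in the difference was not tested.

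Lama3 (ENSMUSG00000024421, chromosome 18, 12333819 to 12583013) encodes an alpha chain of epithelial laminins. It had 25, 24 and 95 reads in the GFP libraries (0.673, 0.716 and 2.68 CPM) and 63, 61 and 71 reads in those of Tomato (1.47, 1.57 and 1.93 CPM). GFP replicate 3 was the highest of all 6 libraries and the other GFP libraries were the lowest, so the groups overlapped. The log2 fold change was -0.29 ± 0.51 (adjusted p = 0.696). Without GFP replicate 3 it was -1.25 and passed the test (adjusted p = 0.0276), so that 1 library decided the call.

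The beta chains Lamb1 and Lamb2 were both abundant and both higher in GFP. Lamb1 (ENSMUSG00000002900, chromosome 12, 31265234 to 31329644), the beta chain of most embryonic and vascular laminins, had 439, 346 and 392 CPM in GFP and 242, 228 and 165 in Tomato. There was no overlap, and the log2 fold change was 0.89 ± 0.16 (adjusted p = 0.00482). Lamb2 (ENSMUSG00000052911, chromosome 9, 108479736 to 108490530), the beta chain of the kidney filter and the nerve-muscle synapse, had 341.5, 257 and 294 CPM in GFP and 224.5, 181 and 139 in Tomato. Its groups did not overlap either, with a log2 fold change of 0.71 ± 0.18 (adjusted p = 0.0210). Lamb2 no longer passed when GFP replicate 1 (adjusted p = 0.0743), GFP replicate 3 (0.0545) or Tomato replicate 2 (0.0701) was left out.

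Lamb3 (ENSMUSG00000026639, chromosome 1, 193207699 to 193343878), a beta chain of epithelial laminin, had 46 to 90 reads per library. It stood at 2.34, 1.37 and 1.89 CPM in GFP and 2.10, 1.54 and 1.66 in Tomato. The groups overlapped, and the log2 fold change was 0.08 ± 0.26 (adjusted p = 0.834).

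Lamc1 (ENSMUSG00000026478, chromosome 1, 153218922 to 153332786), the gamma chain of most laminins, had the highest CPM of the 9 genes. Its levels were 536, 390.1 and 474 CPM in GFP and 260.4, 246 and 175 in Tomato. The fractions did not overlap, and the log2 fold change was 1.04 ± 0.17 (adjusted p = 0.00396).

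Lamc3 (chromosome 2, 31887291 to 31946539), a gamma chain found in brain, retina and some basement membranes, had 2.72, 3.16 and 6.85 CPM in GFP and 31.2, 29.2 and 21.3 in Tomato. Every Tomato library was more than 3 times as high as every GFP library, and the log2 fold change was -2.68 ± 0.35 (adjusted p = 0.00255). Lamc3 and Lama5 thus differed between fractions in the same direction as the mesothelial and macrophage markers. Among the Tomato libraries Lamc3 was lowest in replicate 3. There the macrophage sum was highest (896, 1472 and 2191 CPM in replicates 1, 2 and 3) and the mesothelial sum lowest (1735, 1910 and 1539). The part of these cells was not tested.

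To compare chains with each other, CPM was divided by the length in kb of all annotated exons of the gene. On this scale of CPM per kb the order of mean levels in GFP was Lamc1 (56.4), Lamb2 (48.9), Lamb1 (39.6), Lama4 (26.5), Lama2 (5.69), Lama1 (2.20), Lamc3 (0.697), Lamb3 (0.282), Lama3 (0.126) and Lama5 (0.0951). The ranges of Lamc1 and Lamb2, of Lamb2 and Lamb1, of Lamb3 and Lama3, and of Lama3 and Lama5 overlapped. In Tomato the order was Lamb2 (29.8), Lamc1 (27.5), Lamb1 (21.3), Lama4 (14.5), Lamc3 (4.47), Lama2 (2.98), Lama1 (0.766), Lama5 (0.644), Lamb3 (0.267) and Lama3 (0.154). There the 3 uppermost genes and Lama4 overlapped with their neighbours in the order, as did Lamc3 with Lama2, and Lama1 with Lama5. The order of Lama3 and Lama5 in GFP rested on 1 library, since without GFP replicate 3 their means were 0.0647 and 0.0820.

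The division by length matters for this family. The annotated exons of Lama4 add up to 12068 bases but its longest coding transcript has 6046, and for Lamb1 the lengths are 9917 and 5784. With the longest coding transcript as the length, Lamb1 was above Lamb2 in 6 of 6 libraries, and with all exons it was beneath Lamb2 in 6 of 6. With the longest coding transcript the mean levels in GFP were 67.8 for Lamb1, 61.2 for Lamc1, 52.86 for Lama4 and 52.85 for Lamb2. In Tomato they were 36.6 for Lamb1, 32.2 for Lamb2, 29.8 for Lamc1 and 29.0 for Lama4. Lama2 (5.06) was then above Lamc3 (4.63) in Tomato. The order of these beta chains therefore cannot be read from these counts. Division by a fixed length leaves the ratio of a chain between the fractions unchanged. A separate fit with offsets for length and GC content moved the log2 fold change of Lama4 from 0.87 to 0.72.

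The makeup of the alpha and beta chains, and of Lamc1 with Lamc3, was given as the share of each chain in their summed CPM per kb. Lama4 held 76.4 ± 2.15% of the alpha chain level in GFP and 75.9 ± 2.38% in Tomato, and Lama2 held 16.5 ± 0.675% and 15.4 ± 1.38% (SD, n = 3). Lama1 held 4.84%, 6.39% and 8.16% in the GFP libraries and 2.67%, 4.30% and 5.64% in those of Tomato, and these overlapped. Between libraries of equal replicate number the Lama1 share was higher in GFP in 3 of 3 pairs, by 2.17, 2.09 and 2.52 percentage points. The Lama4 share was also higher in 3 of 3 pairs, by 0.255, 0.537 and 0.723 points, and the Lama2 share in 2 of 3. The share of Lama5 was 0.265%, 0.191% and 0.363% in GFP and 2.03%, 3.27% and 5.51% in Tomato, with no overlap, and Lama3 held 0.374 ± 0.323% and 0.848 ± 0.309%. The groups overlapped for Lama3, while within the pairs its share differed by -0.458, -0.511 and -0.454 percentage points (GFP minus Tomato). Most of the alpha chain RNA was thus of the same 2 genes in both fractions, at a lower total in Tomato: the alpha chains summed to 34.6 ± 5.13 CPM per kb in GFP and 19.1 ± 3.74 in Tomato.

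Lamb1 held 44.6 ± 0.608% of the beta chain level in GFP and 41.6 ± 1.96% in Tomato, and Lamb3 held 0.315 ± 0.0421% and 0.529 ± 0.0947%. The ratio of Lamb1 to Lamb2 was 0.789, 0.826 and 0.817 in GFP and 0.660, 0.774 and 0.729 in Tomato. The GFP ratios were higher than the Tomato ratios without overlap, by 0.171 on the log2 scale. A two-sided exact permutation test that did not use the replicate numbers gave p = 0.10. That is the smallest value that 3 against 3 unpaired libraries allow.

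Of the summed level of Lamc1 and Lamc3, Lamc3 held 0.685%, 1.09% and 1.93% in the GFP libraries against 13.98%, 13.85% and 14.18% in those of Tomato. The Lamc3 share was thus higher in every Tomato library than in any GFP library.

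**Figure D2:**
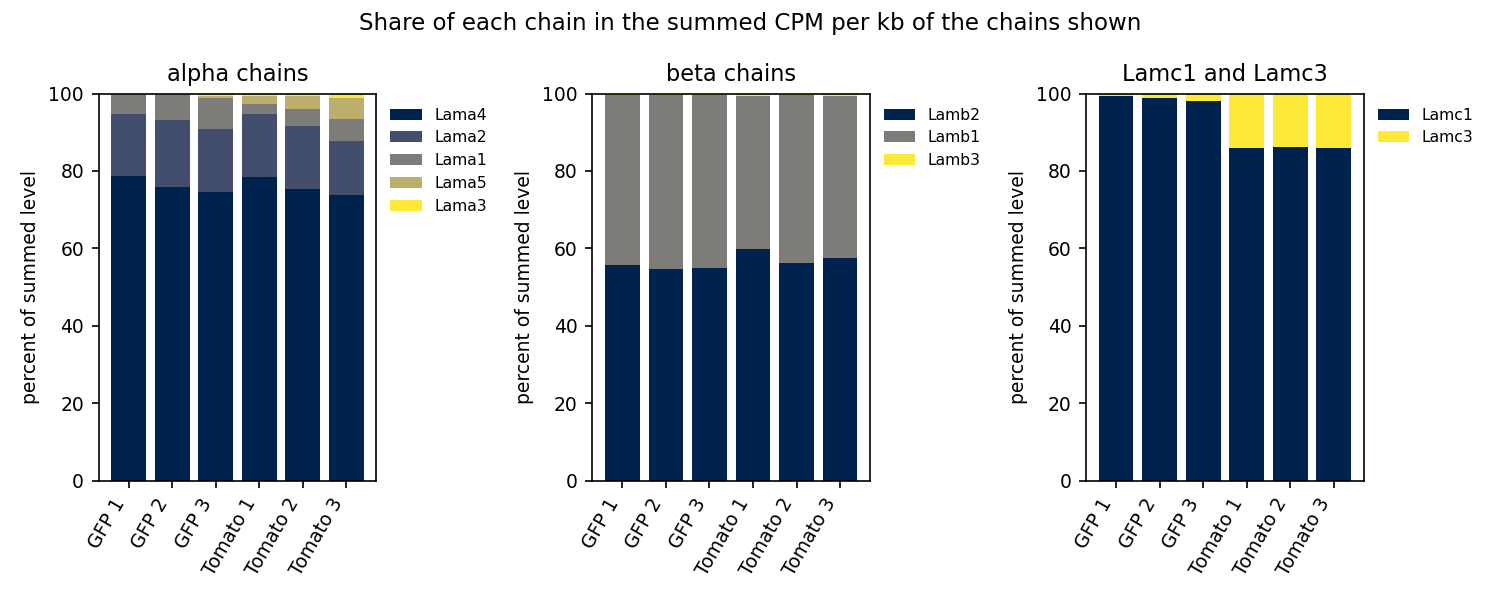
Share of each chain (percent) in the summed CPM per kb of the alpha chains, of the beta chains, and of Lamc1 and Lamc3, with 1 bar per library. The alpha bars are mostly Lama4 and Lama2 in all 6 libraries, the Lama5 segment is at most 0.363% in GFP and at least 2.03% in Tomato, and the Lamc3 segment is at least 13.85% in Tomato.

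Which trimers the RNA would allow was described by the lowest of the 3 chain levels of each of 13 known trimers, in CPM per kb. This value assumes that RNA levels stand for protein and that chains are not shared between trimers. It also assumes that the 3 chains are made in the same cells, which bulk libraries cannot show. Markers of several cell types were found in both fractions, so the chains of a trimer may come from different cells. No protein or trimer was measured. The alpha chains together were scarcer than the beta chains together and than Lamc1 and Lamc3 together in 6 of 6 libraries, although with the longest coding transcript as the length they were scarcer than Lamc1 and Lamc3 in 2 of 6. In 10 of the trimers, those made of Lama1 to Lama5 with Lamb1 or Lamb2 and Lamc1, the alpha chain was the lowest chain in every library. With the longest coding transcript as the length this no longer held in every library for laminin-411 and laminin-421, whose Lama4, Lamb2 and Lamc1 levels were then close to each other.

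Among the trimers with Lamc1, those with the highest lowest chain in both fractions were laminin-411 and laminin-421, set by Lama4 at 26.5 ± 4.59 CPM per kb in GFP and 14.5 ± 3.25 in Tomato. Laminin-211 and laminin-221 followed, set by Lama2 at 5.69 ± 0.656 and 2.98 ± 0.803, and laminin-111 and laminin-121, set by Lama1 at 2.20 ± 0.459 and 0.766 ± 0.148. For laminin-511 and laminin-521 the lowest chain, Lama5, stood at 0.0951 ± 0.0333 in GFP and 0.644 ± 0.186 in Tomato. All of these differed between the fractions without overlap, since each value is that of its alpha chain. With the longest coding transcript as the length, laminin-411 stood at 52.9 and 28.7 and laminin-211 at 9.66 and 5.06 CPM per kb, each still higher in GFP.

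For laminin-423 the lowest chain was Lamc3 in both fractions, at 0.697 ± 0.372 in GFP and 4.47 ± 0.857 in Tomato. For laminin-213 it was Lamc3 in GFP (0.697) and Lama2 in Tomato (2.98 ± 0.803), and with the longest coding transcript as the length the Tomato value was 4.60 and Lamc3 was the lowest chain in Tomato replicates 1 and 2. In Tomato the value of laminin-423 was above that of laminin-211, an order that turned with the longest coding transcript as the length (4.63 against 5.06).

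**Figure D3:**
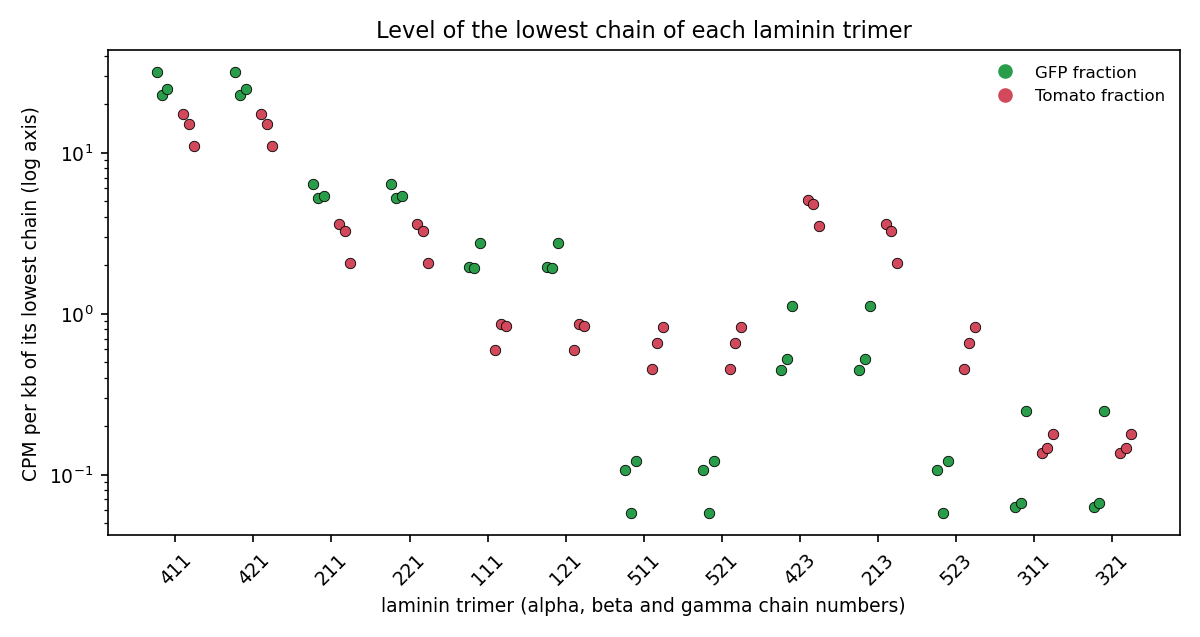
CPM per kb (log axis) of the lowest chain of 13 laminin trimers, named by their alpha, beta and gamma chain numbers. Each point is a library. GFP points are higher for the trimers with Lama4, Lama2 or Lama1 and Lamc1, Tomato points are higher for those with Lama5 or Lamc3, and the points overlap for the 2 trimers with Lama3.

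Of 13 receptor and linker genes 12 were tested, of which 1 was higher in GFP and 5 were lower, with a median log2 fold change of 0.04. These counts stand beside the 13.1% of all genes tested that were higher and the 15.7% that were lower, so that the 1 higher gene is no more than the background. Sgca was too low to be tested. Bcam, which encodes the Lutheran glycoprotein that binds the Lama5 chain, had 14.3, 16.1 and 15.9 CPM in GFP and 109, 112 and 95.2 in Tomato. The log2 fold change was -2.77 ± 0.10 (adjusted p = 4.29e-06). Bcam was thus lower in the same fraction as Lama5.

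The 3 laminin-binding integrin alpha subunit genes of the list were lower in GFP. Itga3, a subunit of an epithelial receptor for laminin-511, had 4.71 ± 0.459 CPM in GFP against 20.4 ± 1.20 in Tomato (log2 fold change -2.11, adjusted p = 3.44e-05). Itga7, the laminin receptor subunit of muscle, had 7.04 ± 1.55 and 33.5 ± 11.5 CPM (-2.25, adjusted p = 0.00155). Itga6 had 14.1 ± 2.27 and 25.0 ± 6.64 CPM (-0.82, adjusted p = 0.0190), which did not pass when GFP replicate 2 (0.0660) or GFP replicate 3 (0.0512) was left out. Itgb4, the partner of Itga6 in hemidesmosomes, had 4.20 ± 0.969 CPM against 8.82 ± 0.596 (-1.07, adjusted p = 0.00417). The same GFP libraries had less of the mesothelial markers and of 5 of 9 tested markers of epithelium and cancer cells, whose part was not tested.

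Itgb1, the beta subunit shared by most laminin-binding integrins, stood at 1175 ± 136 CPM in GFP against 1033 ± 17.8 in Tomato and did not pass (0.19, adjusted p = 0.261). It passed when offsets for length and GC content were added (0.37, adjusted p = 0.0452), a setting in which the median of all genes was 0.116. Dag1, which encodes dystroglycan, had 326 ± 37.6 and 266 ± 38.3 CPM (0.30, adjusted p = 0.124) and passed when replicate numbers were used as a block (0.30, adjusted p = 0.0358). Utrn, which encodes utrophin, a link between dystroglycan and actin, was higher at 55.4 ± 8.84 against 34.0 ± 3.35 CPM (0.70, adjusted p = 0.00627). Sgcb, a sarcoglycan gene of the same complex, had 81.6 ± 3.51 and 68.2 ± 6.74 CPM (0.26, adjusted p = 0.0745) and passed with the block (0.26, adjusted p = 0.0291), with the length and GC offsets (0.44, adjusted p = 0.0110) and when Tomato replicate 1 was left out (0.0460).

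Dystroglycan binds laminin through a sugar chain built by a set of enzymes. Of 9 genes for this chain none was higher by edgeR, DESeq2 or limma-voom or at an unadjusted p under 0.05, 1 was lower and 8 did not pass, with a median log2 fold change of 0.00. Over all genes tested 13.1% were higher and 15.7% lower, and the counts of this list do not stand out from those shares. With offsets for length and GC content B4gat1 passed as higher (0.39, adjusted p = 0.0298), and with the replicate block added to them Pomgnt1 did too (0.23, adjusted p = 0.0364). Large2, which encodes a glycosyltransferase found in epithelia, was scarce, with 0.331 ± 0.0495 and 1.32 ± 0.722 CPM (-1.98, adjusted p = 0.0123), which did not pass when GFP replicate 1 was left out (0.0523). Without those offsets Pomgnt1 stood at 58.3 ± 7.72 and 49.9 ± 2.37 CPM (0.22, adjusted p = 0.155) and Rxylt1 at 65.9 ± 1.55 and 66.0 ± 2.08 CPM (0.00, adjusted p = 0.987).

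Matrix partners of laminin were higher in GFP or did not pass. Of 11 such genes 6 were higher in GFP, and none was lower by edgeR, DESeq2 or limma-voom or at an unadjusted p under 0.05, with a median log2 fold change of 0.51. Over all genes tested 13.1% were higher and 15.7% lower. Nid1, which encodes nidogen, the linker between the Lamc1 chain and collagen IV, had 1921, 1610 and 1402 CPM in GFP against 1150, 935 and 608.5 in Tomato (0.87, adjusted p = 0.0250). Nid1 did not pass when GFP replicate 1 (0.0839), GFP replicate 2 (0.0656) or Tomato replicate 2 (0.0717) was left out, nor with no filter on low counts (0.0809). Its paralog Nid2 had a mean of 61.8 CPM in GFP against 80.5 in Tomato (-0.38, adjusted p = 0.222). The collagen IV chain genes Col4a1 (1718 ± 209 against 903 ± 179 CPM, adjusted p = 0.00525) and Col4a2 (764.5 ± 76.6 against 360.2 ± 101 CPM, adjusted p = 0.00547) were higher by 0.93 and 1.09.

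Hspg2, which encodes perlecan, had 272 ± 26.6 CPM in GFP against 126 ± 37.5 in Tomato (1.11, adjusted p = 0.00872). Fbln2, a fibulin gene, had 4217 ± 323 and 2438 ± 364 CPM (0.79, adjusted p = 0.00650). Ntn4, which encodes a netrin that binds Lamc1 and can take laminin networks apart, had 92.2 ± 7.65 and 64.8 ± 10.8 CPM (0.51, adjusted p = 0.0230). Ntn4 did not pass when libraries were scaled by their size alone (0.0595), nor when GFP replicate 1 (0.0626), GFP replicate 3 (0.0771) or Tomato replicate 2 (0.0518) was left out. Agrn, which encodes agrin, a bridge between laminin and dystroglycan, did not pass (38.5 ± 5.19 against 32.6 ± 4.94 CPM, adjusted p = 0.224). Col18a1 and Fbln1, at 0.45 and 0.34, did not pass (adjusted p = 0.0801 and 0.171). Both passed when replicate numbers were used as a block (0.00474 and 0.0334) and when Tomato replicate 1 was left out (0.0177 and 0.0447), and Col18a1 also passed with DESeq2 (0.0497).

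For each chain the genes with the most similar profile over the 6 libraries were sought among 8823 other protein-coding genes with a mean of at least 10 CPM, by the root mean square distance of centred log2 CPM. The closest to Lama4 was Zmiz1, at a distance of 0.0593, followed by Slit3 (0.0608) and Igf2r (0.0651). Zmiz1 was also closest to Lamb1 (0.0488). The closest to Lamc1 were Fgd5 (0.0447) and Epha3 (0.0804), and Fgd5 was second for Lamb1 (0.0595). The closest to Lama2 were Rnf144a (0.0293) and Col6a6 (0.0309), and the closest to Lamb2 were Phf2 (0.0404) and Clstn1 (0.0456). Lama1 had Aoc1 at 0.0998 and Lama5 had Abcb1b at 0.175 and Cpe at 0.221. Lama3 had Mmp9 at 0.0600 with the next gene, Tmeff1, at 0.290, and Lamb3 had Zfyve16 at 0.0539. All of these distances rest on 6 libraries in 2 groups, and 0.5 CPM was added before the log. For a chain that differed between fractions, a gene with the same difference is close for that reason alone. Lama3 and Lamb3 did not pass the test, and the Lama3 profile had its highest value in 1 library, GFP replicate 3 (2.68 CPM).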

How the data were processed

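RNA was measured in 6 libraries, 3 GFP and 3 Tomato, prepared by Illumina TruSeq from 150 ng of RNA each, per the labels' protocols. The deposited files hold unnormalized counts per gene, in a column for both strands and 1 for each strand, per the file headers. The submitters' processing notes name Trim Galore 0.4.3, STAR 2.5.2b and GRCm38, with no roles. In the sources used here no annotation release or filter was given. The 2 strand columns were nearly equal (ratio 1.002 to 1.006), so the column of both strands was used, and antisense reads cannot be told apart.

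Of 49671 genes 49412 matched GENCODE M21 (GRCm38) by identifier, which gave names, coordinates (1-based) and lengths. The other 259 held 0.00762% of counts. GFP was compared with Tomato by the two-sided quasi-likelihood test of edgeR 4.0.16 in R 4.3.3 (TMM scaling, filterByExpr, robust, no block), with Benjamini-Hochberg adjustment over 15608 genes and a threshold of 0.05. The script was checked on simulated counts. Alternatives were other scalings and filters, DESeq2 1.42.0, limma-voom (limma 3.58.1), no robust estimation, the replicate block, a threshold of 0.01, protein-coding genes only, a column of 1 strand, offsets for length and GC content (splines with 4 degrees of freedom), and leaving out each library.

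The labels do not say whether libraries of a group came from separate animals, so the spread behind the p-values may be technical. No 2 libraries of a group were alike within sampling noise (27.8 to 120 for chi-square over its degrees of freedom). Libraries of equal number deviated together from their group means (correlations 0.403, 0.108 and 0.347). In the share differences and the replicate block the numbers were therefore taken to pair them, which the labels do not state. The main test and the permutation test did not use these pairs. The members and lists (receptors, dystroglycan glycosylation, matrix partners, cell markers, trimers) were chosen with earlier results of these data known. Named genes were all laminin chains, genes of those lists, the gate and driver genes, and the 3 most similar genes per chain, of which some are printed and some are not reported here. Gamma chain shares, differences of shares within pairs, the order of Lama3 and Lama5 without each GFP library, and the promoter windows were added after the data were seen. A gene at 1 CPM rests on 33.4 to 42.2 reads per library.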

Additional observations from a re-analysis of the deposited data

How the results depend on the processing

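The 7 calls among the 9 laminin chains and the directions of those 7 genes held in 13 of 13 alternatives of scaling, filter, tool, strand, gene set, replicate block and length correction. In those settings the log2 fold change ranged from 1.36 to 1.53 for Lama1, 0.756 to 0.963 for Lama2, 0.706 to 0.879 for Lama4, 0.729 to 0.903 for Lamb1, 0.554 to 0.732 for Lamb2, 0.877 to 1.05 for Lamc1 and -3.03 to -2.74 for Lama5. Lamb3, which did not pass in any setting, turned sign in some (-0.08 to 0.36). At a threshold of 0.01, 3 chains were higher (Lama1, Lamb1 and Lamc1), against 3.7% of all genes, and 1 was lower. When a library was left out, 5 to 6 chains were higher and 1 to 2 lower, the second being Lama3 without GFP replicate 3. With the replicate block 6 chains were higher and 1 lower, and the adjusted p of Lama4 was 0.000644. Of the other laminin network genes 7 were higher and 7 lower in 33 tested. With the replicate block 11 were higher and 7 lower, the 4 calls added being Dag1, Sgcb, Col18a1 and Fbln1, and it changed no other call, with length and GC offsets added to the block 14 were higher, and leaving out a library gave 5 to 10 higher and 6 to 7 lower.

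Over all genes 2049 were higher and 2456 lower (45.5% of calls higher). With library size as the only scaling, which moved the median of all genes to -0.162, these were 1128 and 3851 (22.7%). They were 2904 and 1611 (64.3%) with the length and GC correction, which moved it to 0.116, 4164 and 2133 with the block added, and 3137 and 3256 with the block alone. They were 920 and 1380 without GFP replicate 1, 1195 and 1551 without GFP replicate 3, and 833 and 1528 without Tomato replicate 2.

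With the longest coding transcript as the length, chain shares in GFP and Tomato became 3.51% and 2.30% for Lama1, 81.2% and 81.2% for Lama4, 56.1% and 53.0% for Lamb1 and 43.6% and 46.4% for Lamb2. Lama2 became 14.9% in GFP, Lama3 0.204% and 0.465%, and Lama5 0.146% and 1.95%. The lowest chain became 9.66 and 5.06 CPM per kb for laminin-211 and laminin-221, 52.9 and 28.7 for laminin-411, and 52.0 and 28.7 for laminin-421. The alpha chain was then not the lowest in all libraries: it was Lamc1 for laminin-411 and laminin-421 in Tomato replicate 1, and Lamb2 for laminin-421 in GFP replicates 1 and 2. These shifts follow from the lengths. Lama3 (24 to 95 reads), Lamb3 and, in GFP, Lama5 (22 to 49 reads) rest on few reads.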
